A study of Homo sapiens with 3 samples.

Results

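Transcripts annotated for nonsense-mediated decay (NMD) were followed through 3 RNA pull-downs from a bladder cancer cell line. The members are transcripts that GENCODE 29 types as nonsense-mediated decay and whose estimated counts averaged 10 or more over the 3 libraries. They were chosen by annotation and by this mean count, which is therefore not a result. There were 1731 members in 1481 genes, out of 13136 NMD transcripts matched to the annotation and 196354 transcripts in the deposited tables. Of the matched NMD transcripts, 8811 were at 0 in every library and 11405 in all stayed below the minimum. Each member was set against the summed protein-coding transcripts of its own gene, called its host here. The host had a mean of at least 10 counts for 1470 members in 1252 genes, and only these entered comparisons with the host.

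NMD is a surveillance pathway that degrades mRNAs on which translation ends too early. A stop codon is usually read as premature when an exon junction lies well downstream of it, because the exon junction complex left there by splicing then stays on the mRNA and recruits the helicase UPF1. SMG1 phosphorylates UPF1, and SMG5 and SMG6 help to pass the mRNA on to nucleases. Cells also use the pathway in regulation: many genes for splicing factors and ribosomal proteins make a spliced form with a premature stop, which lowers the output of the gene. ZFP36L1, the protein used as bait, belongs to another decay pathway. Its zinc fingers bind AU-rich elements, with UAUUUAU as the core site, mostly in 3′ untranslated regions, and it recruits enzymes that shorten the poly(A) tail.

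Cells of J82, a long-established line from a human bladder carcinoma, were grown to near confluence and lysed, and RNA that bound the bait protein was purified with Trizol and sequenced on a BGISEQ-500. The 3 baits were glutathione S-transferase alone (GST), GST fused to wild-type ZFP36L1 (wild type) and GST fused to a ZFP36L1-Ala mutant (Ala). The labels do not say which residues were changed to alanine, and all groups share the same cells, lysis and GST moiety. Each bait has 1 library, so replicate error is unknown, no test across libraries was possible, and all intervals cover counting error only. Counts are given in the order GST, wild type and Ala throughout.

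The library totals were 19137867, 19845386 and 19153483 estimated counts. The wild-type and Ala files carry the same run code and the GST file another, so run and GST cannot be told apart. Of 13 urothelial and epithelial markers, 6 reached the minimum, with sums of 18167, 3933 and 30364 counts. The keratin KRT18 had 12980, 823 and 20794 counts and PPARG, a urothelial regulator, 416, 2552 and 553, while KRT19, KRT5 and the uroplakin UPK3A were at 0. The mesenchymal markers summed to 42243, 4134 and 29490 counts, most of them VIM, while FN1 had 573, 1403 and 263. Markers of leukocytes, erythroid cells and hepatocytes summed to at most 13 counts in any library.

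The position of the stop codon goes with the annotation by which the members were chosen, so it is a description and not a result. The stop codon lay more than 50 bases before the last exon junction in 1725 members (99.7%), with a median distance of 319 bases and a middle range of 144 to 773. Among 17306 protein-coding transcripts of the same minimum, 99 (0.572%) had such a stop. The premature stop fell outside every protein-coding exon of the gene in 421 of the 1470 members with a host (28.6%) and inside such an exon in 1049. The stop was TGA in 60.5% of members and in 49.9% of protein-coding transcripts. Members had a median length of 1625 bases and a GC content of 49.4%, close to the 1670 bases and 48.9% of the most abundant protein-coding transcript of their genes.

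The ends of 7 members' reading frames are printed to show what makes them candidates for decay. They belong to 3 regulators of splicing or RNA turnover, a ribosomal protein, a stress granule protein, an NF-kB inhibitor and a signalling adaptor that recur below. Each line gives 30 bases of the transcript, 5′ to 3′, with the annotated stop codon in capitals. Sequences and positions are from GENCODE 29 (GRCh38).
SRSF2-208: cctgaagaggaaggagcggtgtcctctTAA
SRSF3-203: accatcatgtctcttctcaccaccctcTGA
HNRNPD-211: ggtcatcaaaatagctacaaaccatacTAA
RPS3-204: tactctggagttgagcggagaccctgtTAA
G3BP1-208: cttgctcctgagagtctgaagaagaagTAG
NFKBIA-203: ggggactcactccactccacttggctgTGA
YWHAE-202: atgatgcaattgcagaactggatacgcTGA

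The SRSF2-208 stop lies at chr17:76736161-76736163 on the minus strand, 105 bases before the last junction. That of SRSF3-203 lies at chr6:36599852-36599854 on the plus strand, in an exon of no protein-coding transcript, 548 bases before the last junction. The HNRNPD-211 stop is at chr4:82355334-82355336 (minus strand, 137 bases) and the RPS3-204 stop at chr11:75404161-75404163 (plus strand, 241 bases). For G3BP1-208 it is at chr5:151795494-151795496 (plus strand, 734 bases), and for NFKBIA-203 at chr14:35403339-35403341 (minus strand, 548 bases). The stop nearest to the last junction in this set is that of YWHAE-202 at chr17:1354298-1354300 (minus strand, 87 bases). All but that of SRSF3-203 lie in exons that a protein-coding transcript of the gene also has.

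The core site of ZFP36L1 was searched as TATTTAT on the transcript strand, overlaps counted, in everything after the annotated stop codon. After a premature stop, this stretch includes downstream coding exons as well as the 3′ untranslated region. It held the site in 320 of 1731 members (18.5%) and in 28.2% of protein-coding transcripts (4886). Of the members with a host, 169 had the site and so did the most abundant protein-coding transcript of their gene, 148 lacked a site that this transcript had, 80 had it where this transcript did not, and 1044 had it in neither. For the other 29 the most abundant protein-coding transcript has no annotated stop codon.

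Host sites of 3 genes are printed because they show how a member can keep or lack a site, here through where its annotated 3′ end falls. Each line gives 27 bases around a TATTTAT, shown in capitals.
NFKBIA-201, also in NFKBIA-203: ccacattttaTATTTATtgtgcttcga
NFKBIA-201, not in NFKBIA-203: ttatgatgtaTATTTATtaaacagatt
G3BP1-202, also in G3BP1-208: ttgtgccttcTATTTATctttgatttc
G3BP1-202, not in G3BP1-208: aaattcagcgTATTTATtttcttaaca
YWHAE-201, not in YWHAE-202: agcaacatggTATTTATtttaatcatt
The site that NFKBIA-203 keeps is at chr14:35401710-35401716. The one it lacks is at chr14:35401531-35401537, and the annotated end of NFKBIA-203 falls inside it. G3BP1-208 ends after the site at chr5:151804895-151804901 and before 2 further sites of G3BP1-202, of which the nearer is printed (chr5:151805507-151805513). The only YWHAE-201 site is at chr17:1344305-1344311, beyond the end of YWHAE-202.

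Pooled over the class, NMD transcripts took a smaller share of the wild-type library than of the other libraries. All 13136 matched NMD transcripts together held 809074, 627634 and 901904 counts, or 4.23%, 3.16% and 4.71% of each library. Per length, in TPM, the shares were 4.40%, 3.07% and 4.94%. Protein-coding transcripts went the other way, with 75.1%, 79.4% and 74.1% of counts. Retained-intron transcripts held 5.63%, 5.34% and 6.11%, and processed transcripts, which have no annotated reading frame, 6.22%, 4.87% and 6.42%.

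Ratios between libraries were formed from counts scaled by trimmed mean of M values (TMM). Calls of higher or lower required a change of 2-fold or more with 1 outside the 95% counting interval. Wild type over GST, the members had a median log2 ratio of -0.68, with 395 higher (22.8%) and 779 lower (45.0%). Over all 27464 transcripts at the same minimum, 23.4% were called higher and 42.9% lower. Ala over GST, 455 members were higher (26.3%) and 248 lower (14.3%), at a median of 0.25, beside 19.7% and 12.8% of all transcripts. Wild type over Ala, 406 were higher (23.5%) and 882 lower (51.0%), at a median of -1.20, beside 26.2% and 45.9%. The shares of members called lower with the wild-type protein were thus only slightly above those of all transcripts. These ratios compare shares of libraries, not amounts of RNA, and fewer molecules of a transcript in the lysate cannot be told apart from less binding.

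In the comparisons with the wild-type protein the hosts moved in part with the members, and Ala over GST they did not. Over the 1470 members with a host, the median log2 ratio of the host was -0.72 wild type over GST, 0.14 Ala over GST and -0.97 wild type over Ala. Wild type over GST, member and host were both called and in the same direction for 572 members, 124 higher and 448 lower, and in opposite directions for 130. Wild type over Ala these numbers were 675 and 173, and Ala over GST 84 and 79. Across members, their log2 ratio and that of the host gave Pearson 0.22 and Spearman 0.36 for wild type over GST, -0.10 and 0.01 for Ala over GST, and 0.31 and 0.39 for wild type over Ala. These points share libraries, and members of 1 gene share a host, so the coefficients are descriptions only.

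**Figure D1:**
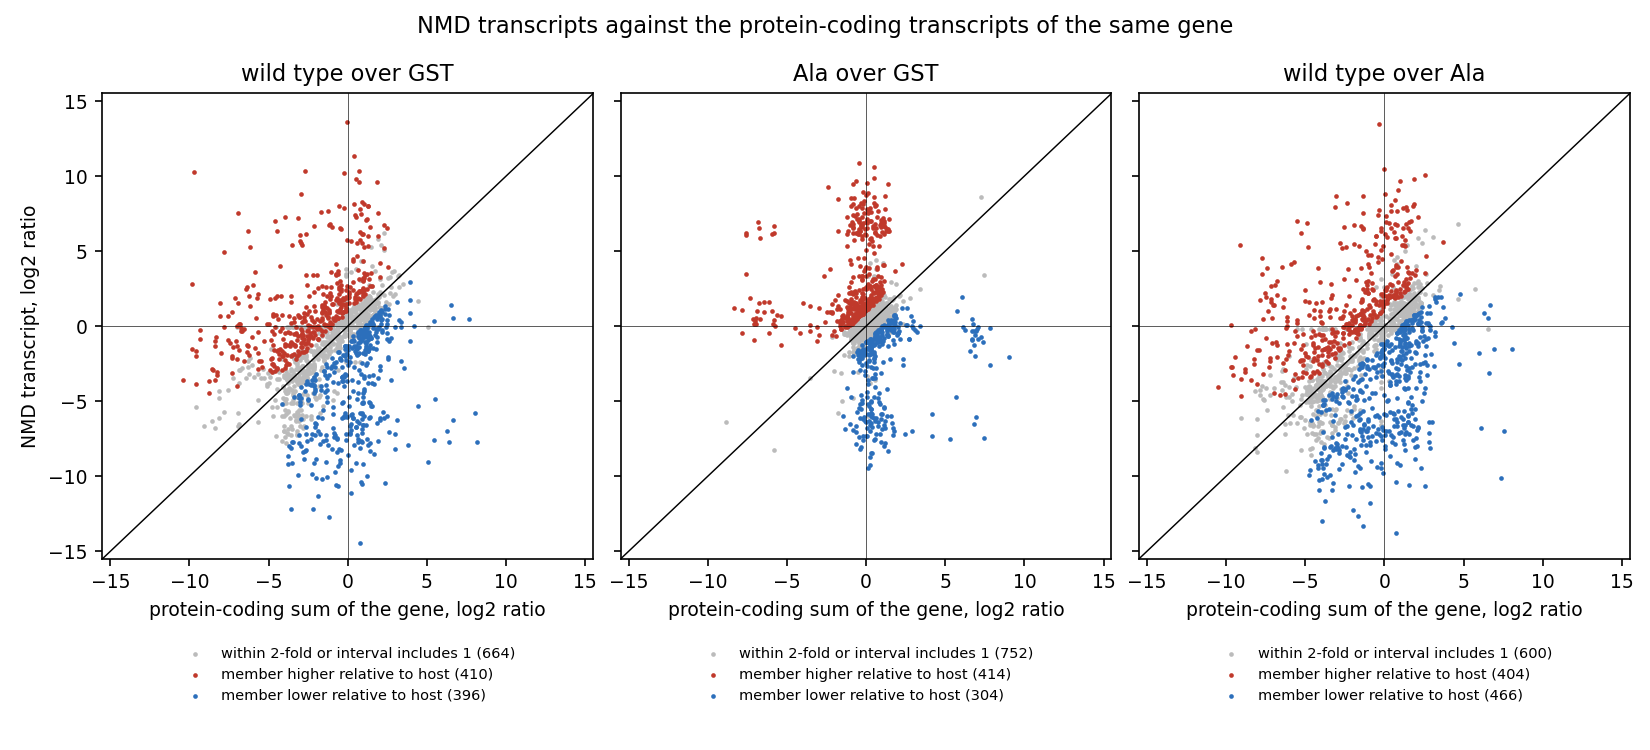
Log2 ratio of each of 1470 NMD transcripts (vertical axis) against that of the summed protein-coding transcripts of its gene (horizontal axis), for the 3 comparisons; points on the diagonal moved with their host. Red and blue mark members at least 2-fold above or below their host with an interval that excluded 1, 410 and 396 of them wild type over GST, and the plumes far from the diagonal near a host ratio of 0 hold many members with a count of 0.

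The relative ratio removes the host's own change. It is the log2 change, between libraries, of member counts over host counts, so that library scaling does not enter. Wild type over GST its median was 0.07, with 410 members called higher (27.9%) and 396 lower (26.9%). Among 16332 transcripts of other types, set against the other protein-coding transcripts of their gene in the same way, 29.1% were called higher and 28.3% lower. Ala over GST the median was 0.18, with 414 higher (28.2%) and 304 lower (20.7%), beside 24.8% and 22.6%. Wild type over Ala it was -0.27, with 404 higher (27.5%) and 466 lower (31.7%), beside 29.4% and 30.0%. Relative to their genes, NMD transcripts were therefore called about as often as other transcripts, and in both directions. With counts of 0 set to a floor of 3, the medians were 0.13, 0.19 and -0.14.

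Other transcript types had relative medians, wild type over GST, of 0.40 for retained introns, 0.26 for processed transcripts and -0.10 for protein-coding transcripts against the rest of their gene. The median of NMD transcripts lay between the last and the others. With all other transcripts of the gene as the denominator it was -0.23, and with a minimum of 100 counts for the member it was 0.29, so its sign was not stable. The relative ratios were widely spread, as were those of all tested transcripts: 47.5% of members differed at least 4-fold from their host wild type over GST, beside 46.9% of all transcripts, and 30.3% Ala over GST, beside 27.7%.

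**Figure D2:**
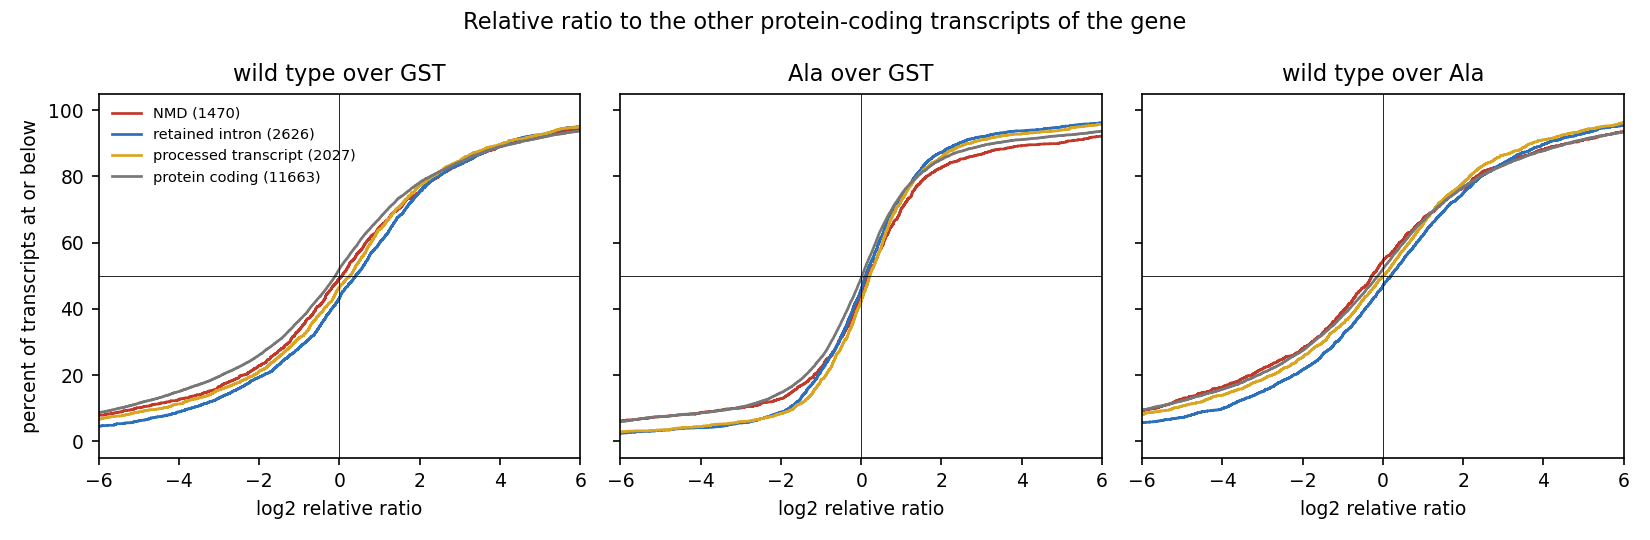
Cumulative percent of transcripts (vertical axis) at or below each log2 relative ratio (horizontal axis, drawn from -6 to 6) for 4 transcript types, in the 3 comparisons. The NMD curve runs close to the others, crossing 50% at 0.07, 0.18 and -0.27, and the curves of Ala over GST are steeper than those that involve the wild-type protein.

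Within genes, hosts held most of the counts. Over the 1252 genes, members made up 21.3%, 19.6% and 23.0% of the pooled counts of members plus hosts. The median gene had 30.5%, 24.9% and 28.9% of these counts in its NMD transcripts. In 429, 430 and 445 genes the NMD transcripts held more than 50%.

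How firmly such numbers can be read depends on how much sequence a member has to itself. An estimated count is assigned by kallisto from reads that fit several transcripts, and a median of 4.62% of a member's 31-base words were found in no protein-coding transcript of its gene (middle range 1.89% to 17.0%, over the 1689 members of genes with protein-coding sequence). In 640 of the 1470 members with a host no base lay outside protein-coding exons, so only junctions set them apart. In addition, 600 members had at least 10% of these words in transcripts of other genes. Counts of 0 were common: 161 members (9.30%) in GST, 340 (19.6%) in wild type and 133 (7.68%) in Ala. A count of 0 in a library beside 100 or more in another was seen in 160 members (9.24%), in 7.28% of protein-coding transcripts and in 5.36% of retained-intron transcripts. Of the calls relative to the host, 271 of 806 wild type over GST, 251 of 718 Ala over GST and 318 of 870 wild type over Ala involved a count of 0. Only 970 members had at least 10 counts in all libraries, and 246 reached the minimum through a single library: 72 through GST, 52 through wild type and 122 through Ala.

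Sorting the members by the ZFP36L1 site split them. Where member and host both held UAUUUAU (n = 169), the relative median wild type over GST was 0.57, with 60 called higher and 42 lower. Where the host held it and the member did not (n = 148), it was -0.93, with 22 higher and 66 lower. Wild type over Ala the same classes stood at 0.08 (64 higher, 46 lower) and -1.44 (26 higher, 82 lower). The sign of the former was not stable: it was -0.34 with a minimum of 100 for the protein-coding sum and -0.64 with no minimum for the member. Ala over GST they stood at 0.21 (52 higher, 44 lower) and 0.58 (46 higher, 29 lower). In the 80 members with a site that the host lacked, the relative median was 0.64 wild type over GST (31 higher, 16 lower) and 0.43 wild type over Ala. With the site in neither (n = 1044) it was 0.07, with 291 higher and 265 lower.

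The log2 ratios themselves, which include scaling, show what moved. Wild type over GST, members with the site in both had a median of 1.01 and their hosts 0.94. Members that lacked the host's site had a median of -0.27 beside 0.89 for their hosts. With the site in neither, members stood at -1.45 and hosts at -1.64. Among protein-coding transcripts other than the most abundant of their gene, the relative medians wild type over GST were -0.93 with the site in both (n = 994), -1.52 with it in the host only (n = 390), 0.24 with it in the transcript only (n = 525) and -0.54 with it in neither (n = 4822). In both sets the class with the site in the host only was lowest and the class with it in the transcript only highest, while the classes in between stood in another order.

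**Figure D3:**
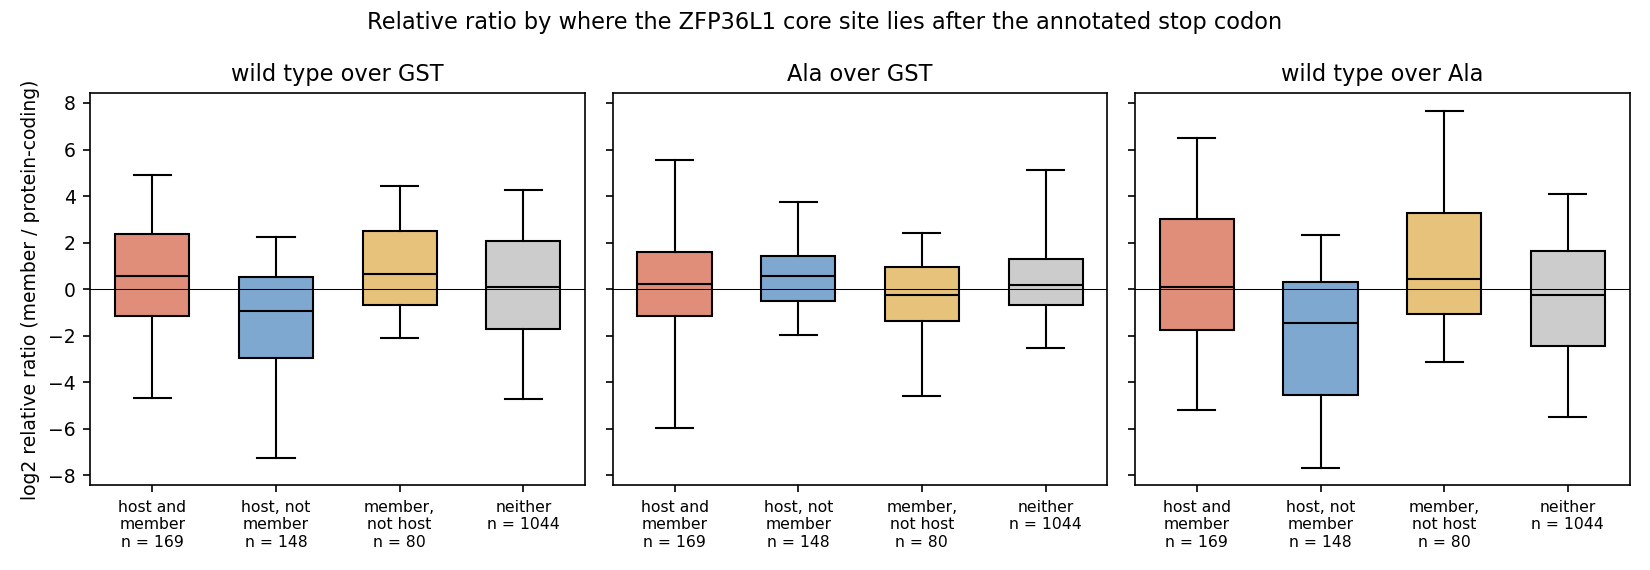
Log2 relative ratio (member over host, vertical axis) by where UAUUUAU lies after the annotated stop codon, in the 3 comparisons; boxes span the middle range, lines mark medians and whiskers run from the 10th to the 90th percentile. Members without the site of their host sit lowest wild type over GST (median -0.93) and wild type over Ala (-1.44), and the boxes of all classes overlap.

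Other properties moved with the site. Members that lacked the host's site had a median length of 1296 bases beside 3922.5 for the most abundant protein-coding transcript, a GC content 1.66 percentage points higher, and a 3′ end within 100 bases of a protein-coding end in 33.1%. Members that kept a site differed by 0.12 percentage points in GC content and shared an end in 60.9%. Over all members, the 368 with the largest GC excess over their host had a relative median of -0.44 wild type over GST and -1.42 wild type over Ala, and the 368 at the other extreme 0.39 and 0.70. On either side of the median GC difference (0.52 percentage points), the site classes differed wild type over GST. Medians with and without the site were 0.91 and -0.86 at or below it, and 0.11 and -1.14 above it. They were 0.81 and -1.20 where the 3′ end was shared and -0.10 and -0.88 where it was not. The medians also moved with GC content. Members with the site stood, wild type over Ala, at 1.13 at or below the median GC difference and at -0.92 above it. Those without the site were also lower above it. Length was not split in this way. Whether GC content or length causes the difference between the site classes was not tested.

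The difference of the medians with and without the site was 1.49 wild type over GST and 1.53 wild type over Ala. After a fit on the differences in GC content and length was removed, it was 1.25 and 0.97, while the Ala over GST difference turned from -0.37 to 0.29. It was far smaller among members with sequence of their own. With at least 10% of 31-base words found in no other transcript, the medians wild type over GST were -0.59 (n = 27) and -0.72 (n = 34), a difference of 0.12, and wild type over Ala the difference was 0.57. With at least 10% found in no protein-coding transcript of the gene, they were -0.25 (n = 40) and -0.87 (n = 51), a difference of 0.63. The share that the estimation of counts has in the pattern was not tested.

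The abundant members with and without a site are described next, with examples from the 10 with the most counts in each class. With a site in both, 5 of 10 were called higher relative to the host wild type over GST and 1 lower. G3BP1-208, from the gene of a stress granule protein, had 2426, 23731 and 1691 counts beside 3679, 8037 and 2463 in its host. Its relative log2 ratio was 2.16 wild type over GST (2.08 to 2.25) and 0.06 Ala over GST, and its share of member plus host counts was 39.7% in GST and 74.7% in wild type. The wild-type library is the high one for both transcripts, and more so for the member. G3BP1-208 and its host share nearly all sequence, since 1.09% of the member's 31-base words were outside protein-coding transcripts.

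NSUN2-203, from the gene of an RNA cytosine methyltransferase, had 664, 4202 and 483 counts, while its host had 145, 73 and 109, a relative log2 ratio of 3.65. MYOF-205 belongs to a membrane repair protein gene and had 2440, 3626 and 1484 counts beside 89, 4 and 82. In both genes most counts were assigned to the member in every library. Of the members' 31-base words, 0.85% and 2.47% were outside protein-coding transcripts, so this depends on how shared reads were divided. EIF4A2-207, from a translation helicase gene, had 1579, 10998 and 2420 counts beside 173, 816 and 57, a relative log2 ratio of 0.57 wild type over GST, 2.21 Ala over GST and -1.64 wild type over Ala. With all other transcripts of the gene as the denominator the last value was 0.45.

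TUBG1-204, from the gamma-tubulin gene, had 922, 3454 and 3836 counts beside 2107, 1027 and 891, so that Ala and wild type were alike and GST stood apart (2.94 wild type over GST, 3.30 Ala over GST). SMURF2-206, from a ubiquitin ligase gene, had 2637, 8071 and 2265 counts, 4 sites after its stop and 54.8% of 31-base words outside protein-coding transcripts. Its host had 0, 0 and 60 counts, so no relative fold wild type over GST is given, and its own log2 ratio was 1.53.

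Of the 10 members with the most counts that lacked the host's site, 1 was called higher and 5 lower wild type over GST. YWHAE-202 comes from the gene of an adaptor that binds phosphorylated proteins. It had 7879, 6229 and 6373 counts while its host had 3003, 14394 and 1641, a relative log2 ratio of -2.60 (-2.67 to -2.53). The member hardly differed between the libraries, and the host was high in the wild-type library only.

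Not every member without the site was called lower relative to its host. QKI-204, from an RNA-binding protein gene, lacks the 3 sites of its host yet had 1062, 4114 and 575 counts beside 461, 1230 and 217, a relative log2 ratio of 0.54. KLF16-202, from a transcription factor gene, had 658, 1463 and 905 counts beside 1528, 708 and 2195 (2.26). PFDN4-202, from a chaperone subunit gene, had 1261, 3828 and 857 counts beside 195, 728 and 68 (-0.30), and COX17-202, from a copper chaperone gene, 369, 2435 and 852 beside 894, 8944 and 577 (-0.60). The last pair have 31.3% and 50.1% of their 31-base words outside protein-coding transcripts and were highest, with their hosts, in the wild-type library. Wild type over Ala their relative log2 ratios were -1.25 and -2.44, and 0.60 and 0.55 once the fit on GC and length was removed.

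NFKBIA-203 was the only member from 38 measured genes known as targets of the ZFP36 family or belonging to it. As genes, 29 of the 38 were higher wild type over GST and 1 lower, beside 25.5% and 34.2% of all 14082 genes. Ala over GST 1 was higher and 1 lower (9.0% and 5.13% of all genes), and wild type over Ala 29 were higher and 1 lower (30.1% and 36.1%). NFKBIA encodes an inhibitor of NF-kB. NFKBIA-203 had 627, 6402 and 749 counts and its protein-coding transcripts 477, 3145 and 415. The log2 ratios wild type over GST were 3.27 for the member and 2.64 for the host, so both were high with the wild-type protein. Their relative ratio of 0.63 was under 2-fold, and the member held 56.8%, 67.1% and 64.3% of the counts.

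Splicing regulators gave 30 members in 22 genes, from 54 measured genes. Relative to the host, 7 were called higher and 12 lower wild type over GST, at a median of -0.49. Ala over GST 15 were higher and 4 lower, at a median of 0.999, and wild type over Ala 6 were higher and 15 lower, at -1.21. Over all members the shares called were 27.9% and 26.9% wild type over GST, 28.2% and 20.7% Ala over GST, and 27.5% and 31.7% wild type over Ala. As genes, 5 of the 54 were higher and 16 lower wild type over GST, beside 25.5% and 34.2% of all genes. HNRNPD-211, from the gene of AUF1, a regulator of mRNA turnover, had 8844, 1828 and 3601 counts beside 3691, 2321 and 1851. Its share was 70.6%, 44.1% and 66.0%, lowest in the wild-type library. SF1-211, from the branch point binding protein gene, had 3863, 1102 and 1605 counts beside 2197, 865 and 2523 (-0.46 wild type over GST, -1.47 Ala over GST).

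SR proteins bind exonic enhancers, and their genes are classic makers of NMD forms. SRSF2-208 had 2096, 643 and 3512 counts, while the protein-coding transcripts of the gene had 367, 758 and 75, so its relative log2 ratio was -2.75 wild type over GST and 3.03 Ala over GST. Those values cover little of the gene. Transcripts typed as retained intron took 75.1%, 96.5% and 65.9% of SRSF2 counts, the gene sum was 9903, 40582 and 10506, and 55.2% of the words of SRSF2-208 also occur in transcripts of other genes. SRSF3-203 carries its stop in an exon of no protein-coding transcript and has 45.5% of its words outside them. It had 22, 9 and 35 counts beside 7084, 6754 and 5528, which is 0.31%, 0.13% and 0.63% of member plus host counts. Its relative log2 ratio was -1.18 wild type over GST and 1.02 Ala over GST, and removing the fit on GC and length turned these to 0.33 and -1.02.

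Other SR protein members, picked after their values were seen, were also scarce in the wild-type library. SRSF6-202 had 75, 8 and 232 counts beside 3811, 3784 and 2882 in its host. SRSF7-208 had 18, 0 and 47, and SRSF5-211 28, 0 and 22. SRSF7-207 was an exception, with 189, 684 and 75 counts beside 1300, 3854 and 1413. The SRSF7 transcripts share a host, so they are not separate cases.

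Further splicing regulators with many counts differed among themselves. SNRNP70 encodes a protein of the particle that recognises 5′ splice sites. SNRNP70-209 had 3004, 107 and 3891 counts beside 2612, 53 and 3817, so member and host were low together in the wild-type library, and the relative log2 ratio of 0.81 turned to -1.19 with all other transcripts of the gene as the denominator. HNRNPH1-218 had 1017, 1404 and 78 counts beside 1078, 624 and 1050, with Ala as the low library (-3.66 Ala over GST). It has 1.55% of its words outside protein-coding transcripts.

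Ribosomal protein genes gave 37 members in 25 genes. Wild type over GST 1 of them was higher and 19 lower, wild type over Ala none was higher and 27 lower, and Ala over GST 19 were higher and none lower. Over all members the shares higher and lower were, in that order, 22.8% and 45.0%, 23.5% and 51.0%, and 26.3% and 14.3%. The 84 genes went in the same directions. Wild type over GST 3 were higher and 59 lower, Ala over GST 12 and 0, and wild type over Ala 1 and 63. Over all genes the shares were 25.5% and 34.2%, 9.0% and 5.13%, and 30.1% and 36.1%. Relative to the host, 10 members were called higher and 4 lower wild type over GST, at a median of 0.34. Over all members with a host these shares were 27.9% and 26.9%. Ribosomal protein genes have many near-identical processed copies in the genome, so how their reads were divided is uncertain.

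RPS3-204 had the highest mean TPM of all members. Its TPM was 5312, 1087 and 9270, and its counts were 31589, 5929 and 60833 beside 17597, 4211 and 35571 in the host. The share of 64.2%, 58.5% and 63.1% hardly moved, although wild type was low and Ala high for both. RPS25-206 had 24707, 14449 and 16552 counts beside 2564, 742 and 2621, a share of 90.6%, 95.1% and 86.3%. RPL37A-202 differed in that the wild-type library was the high one: 11143, 16714 and 11788 counts beside 19575, 72868 and 32439, with a relative log2 ratio of -1.31.

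RPL13-210 had 35248, 3053 and 26898 counts beside 13029, 1075 and 34522, so wild type was low for both and Ala high for the host only (relative log2 ratio 0.07 wild type over GST, 1.87 wild type over Ala). The latter was -0.26 after removal of the GC and length fit. RPL18-206 had 10413, 745 and 18714 counts beside 17463, 3428 and 45517 (-1.46 wild type over GST). RPL8-211 had 8144, 1257 and 25766 counts and a share near its host's in every library (relative log2 ratio 0.34 wild type over GST). Processed transcripts held 64.4%, 47.1% and 36.7% of RPL8 counts. RPL21-205 had 13618, 1939 and 10632 counts beside 750, 44 and 585, a relative log2 ratio of 1.26 wild type over GST that became -0.96 with all other transcripts of the gene as the denominator. Of its words, 75.4% also occur in transcripts of other genes.

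Outside the ribosome, ACTB-204 had the most counts of any member. It comes from the beta-actin gene and had 104745, 36783 and 95445 counts beside 707339, 765779 and 473821, or 12.9%, 4.58% and 16.8% of member plus host counts. The host hardly differed between GST and wild type while the member was 3.08-fold lower relative to it. CALM2-203, from a calmodulin gene, had 16410, 20542 and 12709 counts beside 5093, 3319 and 3543, and its share was highest in the wild-type library (76.3%, 86.1% and 78.2%).

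Translation factor genes gave 10 members in 6 genes, of which none was called higher and 2 lower relative to the host wild type over GST. Ala over GST 3 were higher and none lower, and wild type over Ala none was higher and 6 lower. Over all members with a host the shares were, in the same order, 27.9% and 26.9%, 28.2% and 20.7%, and 27.5% and 31.7%. RACK1-224, from the gene of a ribosome-bound scaffold, had 15333, 849 and 17674 counts beside 53803, 3764 and 59649, so both were low together (relative log2 ratio -0.34). PABPC1-223, from the poly(A)-binding protein gene, had 250, 388 and 407 counts beside 1781, 4944 and 2159. EIF4A1-222 had 3224, 0 and 4431 counts beside 11636, 5403 and 12001, and 88.8% of its words occur in transcripts of other genes. The count of 0 allows a share of up to 0.0555% in the wild-type library.

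**Figure D4:**
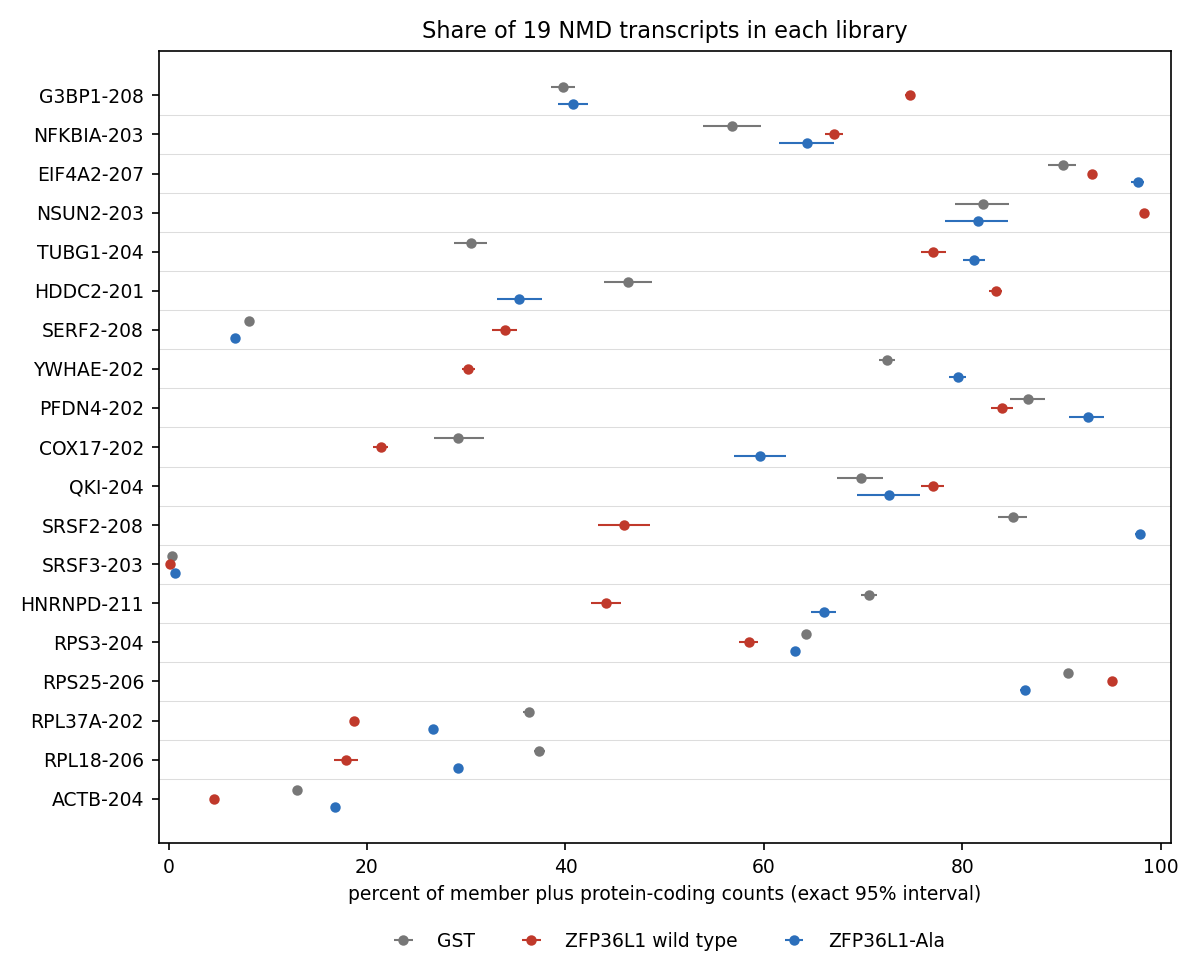
Share of 19 members in member plus host counts (horizontal axis, percent) in each library, with exact 95% counting intervals that are often narrower than the points. G3BP1-208, HDDC2-201 and SERF2-208 have their highest share in the wild-type library, whereas YWHAE-202, SRSF2-208, HNRNPD-211 and ACTB-204 have their lowest there, and RPS3-204 stays between 58.5% and 64.2%.

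Genes known as endogenous NMD targets, some of which are also on the list of splicing regulators, gave a mixed picture. Of 24 measured genes, 4 were higher and 10 lower wild type over GST, 3 and 1 Ala over GST, and 5 and 10 wild type over Ala. Over all genes the shares were 25.5% and 34.2%, 9.0% and 5.13%, and 30.1% and 36.1%. ATF4, a stress transcription factor with upstream reading frames, had 13387, 5474 and 11729 counts (log2 ratio -1.37 wild type over GST). The snoRNA hosts GAS5 and ZFAS1 stood at 0.22 and -0.86, and GADD45B, a stress-response gene, at 0.67. The list held 4 members, and all 4 were called lower relative to the host wild type over GST, beside 26.9% of all members. The SRSF2 and SRSF3 members among them were already counted with the splicing regulators. The others were UPP1-205, with 113, 0 and 204 counts beside only 0, 7 and 24 in its host, and BAG1-203, with 135, 0 and 27.

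The mRNAs of the NMD machinery were called lower about as often as those of all genes. Of 29 measured genes for decay factors, 4 were higher and 10 lower wild type over GST, beside 25.5% and 34.2% of all genes, at a median of -0.66 beside -0.04. Ala over GST 1 was higher and 1 lower (9.0% and 5.13% of all genes), at a median of -0.005 beside 0.04. Wild type over Ala 3 were higher and 11 lower (30.1% and 36.1%), at a median of 0.007 beside -0.04. GSPT1, the termination factor eRF3a, had 5835, 19968 and 4437 counts (log2 1.69), and XRN1, the 5′ to 3′ exonuclease, 99, 289 and 57 (1.46). SMG5, SMG6 and UPF3B were lower, at -3.49, -3.20 and -2.25, while UPF1 stood at -0.69.

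These genes also gave 6 members. RUVBL2, which encodes an ATPase that acts on SMG1, had 2. RUVBL2-201 had 2225, 0 and 3503 counts and RUVBL2-208 31, 132 and 1434, beside 1099, 98 and 1282 in their common host. The 2 members went opposite ways wild type over GST. DHX34-202, from a helicase gene of the pathway, had 78, 11 and 256 counts, NCBP2-205, from a cap-binding protein gene, 89, 0 and 0, and MAGOHB-208, from an exon junction complex gene, 37, 20 and 10. NCBP2-205 reached the count minimum through the GST library alone. The sixth is PABPC1-223.

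Some members differ more in sequence from the protein-coding transcripts of their gene, although they may share it with other transcripts. In 220 members with a host, at least 30% of the 31-base words lay outside protein-coding transcripts of the gene. Their relative medians were 0.23, 0.04 and 0.23 for wild type over GST, Ala over GST and wild type over Ala. They were called higher and lower in 65 and 58, 42 and 46, and 80 and 62 cases. Over all members with a host these shares were 27.9% and 26.9%, 28.2% and 20.7%, and 27.5% and 31.7%. HDDC2-201, from a phosphohydrolase gene, has a site that its host lacks and had 790, 9678 and 616 counts beside 917, 1934 and 1129 (relative log2 ratio 2.54, 2.38 to 2.69, wild type over GST, and -0.66 Ala over GST). The log2 ratio wild type over GST was 3.53 for the member and 0.99 for its host.

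Members of this set without a site also differed. Most of those named next share nearly all words with some other transcript, and SERF2-208 has 4.18% found in no other. SERF2-208 had 2217, 1872 and 2233 counts, little changed, beside a host with 25154, 3656 and 30910 (2.54), but 79.6% of its words occur in transcripts of other genes. INO80E-211, from a chromatin remodelling gene, had 789, 574 and 1183 counts beside 655, 27 and 842 (4.12). H2AFJ-201, from a histone variant gene, was lower than its host in the wild-type library, with 1153, 65 and 1879 counts beside 217, 70 and 301 (-2.51). NDUFA3-206, from a respiratory chain subunit gene, had 1289, 138 and 1804 counts beside 5571, 498 and 7864 and moved with its host (0.26), as did ATP5MF-204, from an ATP synthase subunit gene, wild type over GST, with 2670, 396 and 1990 beside 4283, 494 and 7439 (0.36).

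The most extreme relative ratios came mostly from transcripts with little sequence outside protein-coding transcripts, which is also true of most members. The 8 highest and 8 lowest for wild type over GST and for wild type over Ala and the 5 highest and 5 lowest for Ala over GST are 32 transcripts. In 29 of them a count of the member or host was 0, and 24 had under 5% of their words outside protein-coding transcripts. The median of that percentage was 2.01% (0 to 81.4%), beside 4.62% over all members. Among the 1470 members with a host, a count of 0 entered the ratio of 484 wild type over GST, 295 Ala over GST and 499 wild type over Ala. POLR1D-204, from the gene of an RNA polymerase subunit, had 0, 6654 and 0 counts beside a steady host of 2606, 2622 and 2795. The member reached the count minimum through the wild-type library alone, so its high ratio there is not separate from how it was chosen. Against the floor of 3 counts its relative log2 ratio wild type over GST was at least 11.11, yet 1.34% of its words are outside protein-coding transcripts. PPIA-202, from the cyclophilin A gene, had 10524, 0 and 6144 counts beside 96854, 176306 and 89804, and 61.8% of its words occur in other genes. OAZ1-207, from the antizyme gene, had 647, 14886 and 326 beside 329, 433 and 1994. Transcripts typed as retained intron held 88.9%, 19.4% and 85.5% of OAZ1 counts, so member and host cover little of the gene in GST and Ala.

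PRKAR1A-202, from the gene of a protein kinase A subunit, had 1092, 16 and 12 counts beside 1179, 6099 and 1189, a relative log2 ratio of -8.42 wild type over GST and -6.46 Ala over GST. Here wild type and Ala were low together.

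At the count minimum itself, ITSN2-207 had 10, 3 and 17 counts and MYB-204 18, 0 and 13, just inside. RRM1-210 with a mean of 9.99 (13, 0 and 17), TMX2-207 with 9.97 (0, 0 and 30) and ABRAXAS1-207 with 9.96 (7, 20 and 3) were just outside.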

How the data were processed

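RNA from 3 pull-downs, 1 library per bait, was given as transcript tables. The authors deposited estimated counts and TPM per transcript, made with kallisto; kallisto, DESeq2 and the build hg19 are named per the submitters' processing notes, while the sources used here do not give their versions or the annotation. Transcripts were matched by identifier to GENCODE 29 (181857 of 196354; the rest held 3.92%, 3.79% and 4.20% of counts in GST, wild type and Ala). Positions are those of GRCh38 and none was converted.

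Estimated counts as deposited by the authors were rounded to whole numbers. Member ratios used edgeR 4.0.16 TMM factors from gene sums (factors 1.03, 1.05 and 0.933), a prior count of 0.5 and exact (Clopper-Pearson) 95% intervals. Relative ratios are log2 odds ratios with 0.5 added to each count and Woolf 95% intervals. Neither calls nor intervals are tests between conditions: with 1 library per bait there is no replicate error, and the intervals cover counting error only, not the assignment of shared reads. The floor for a count of 0 was 3 counts, or 3 over the summed counts for a share. Words of 31 bases were counted in GENCODE transcripts. The calculations recovered 49, 45, 49 and 50 of 50 members simulated at log2 relative ratios of -3, -2, 2 and 3 (wild type over GST, 1470 members). The simulated counts were independent Poisson draws, so this checks the arithmetic only, not the assignment of shared reads or replicate error. Alternatives covered scaling, minimum counts, added counts, interval, denominator, TPM, GC and length, and subsets of members. Other tools were R 4.3.3, DESeq2 1.42.0, python 3.11.15, numpy 2.4.6, pandas 2.3.3, scipy 1.17.1 and matplotlib 3.10.9.

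Named members were the 8 highest and 8 lowest relative ratios by interval bound, 1 per gene, for each comparison with wild type and 5 each for Ala over GST, the 10 with the highest mean TPM, up to 8 per gene list by counts, and 3 on each side of the count minimum. The text gives examples of them, and some are not reported here. The 10 members with the most counts in each site class and among distinct members were added after values were seen, as were the genes named for their decay role beyond the 6 with most counts. The members and all lists were chosen with earlier results of these data known.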

Additional observations from a re-analysis of the deposited data

How the results depend on the processing

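No paired analysis was possible because each bait has 1 library, and for the same reason no library could be left out. Over all alternatives, 221 of 291 summary values stayed close to the main value and 70 moved. Direction was not judged separately for summary values. Some that moved changed sign, such as the relative median wild type over GST with all other transcripts of the gene as the denominator. Of 2478 other values, of named members and of the difference between the site classes, 2294 stayed the same, 51 became weaker, 31 stronger, 90 moved and 12 reversed. Values below are log2 medians, or counts called higher and lower, in the order wild type over GST, Ala over GST and wild type over Ala unless stated.

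Of the summary values, scaling moved only the median member ratio (main values -0.68, 0.25 and -1.20), and the relative ratio uses no scaling. Among named members it moved or weakened 10 and 4 values with totals that leave out the most abundant genes, 6 and 4 with TMM on transcripts, and 2 and 2 with total counts. Ala over GST it was 0.15 with TMM on transcripts, 0.11 with total counts and 0.039 once mitochondrial genes, ribosomal RNA and the top 20 genes were taken out of the totals, which also gave -0.88 wild type over Ala. TPM with a pseudocount of 0.1 gave -0.40, 0.00 and -0.60, and with 0.5 gave -0.29, 0.00 and -0.37, with 287 higher Ala over GST, a relative median of -0.057 wild type over Ala and -1.02 there for members without the host's site.

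With no minimum (4325 transcripts) member medians were -0.082, 0.14 and -0.22, with 780 higher and 463 lower Ala over GST. With a minimum of 100 (780) the calls were 205 and 353, 144 and 64, and 208 and 383, with a median of -0.80 wild type over Ala. With no minimum for the member (3407), relative calls Ala over GST were 627 and 461, 707 were lower wild type over Ala, and members with the site in both stood at 0.0076 wild type over GST and -0.64 wild type over Ala. With 100 for the member (675), relative medians were 0.29 wild type over GST and 0.18 wild type over Ala, with calls of 219 and 169, 158 and 128, and 221 and 188, and the site in both at 1.18 and 1.41. With 100 for the protein-coding sum (1068) they were -0.17 and -0.43, and the site in both stood at 0.11 wild type over GST and -0.34 wild type over Ala.

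With at least 10% of 31-base words in no other transcript (275 members), the calls were 80 and 76, 51 and 49, and 77 and 79, with medians of 0.074 Ala over GST and 0.035 wild type over Ala. Members with the site in both stood at -0.59, -0.12 and -0.55, and those without the host's site at 0.22 Ala over GST. With at least 10% in no protein-coding transcript of the gene (482, chosen after seeing the data), the calls were 130 and 135, 114 and 85, and 135 and 149, the median Ala over GST was 0.090, the site in both stood at -0.25, -0.10 and -0.45, and the host-only class at 0.33 Ala over GST. Fewer members enter these subsets, so their counts of calls are smaller by construction.

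With all other transcripts of the gene as the denominator, the relative medians were -0.23 wild type over GST and -0.46 wild type over Ala. SNRNP70-209 reversed to -1.19 and -1.44 and RPL21-205 to -0.96 and -1.004 in the same comparisons, and EIF4A2-207 to 0.45 wild type over Ala. After removal of the GC and length fit, SRSF3-203 reversed to 0.33, -1.02 and 1.36. Wild type over Ala, RPL13-210 reversed to -0.26, PFDN4-202 to 0.60 and COX17-202 to 0.55. Members without the host's site then stood at -0.14 Ala over GST and -0.29 wild type over Ala, and the difference between the site classes reversed to 0.29 Ala over GST. The cause of these changes was not tested.

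The limits are those of the design and of the counts. Each bait has 1 library, GST was in another run, and nothing here separates binding from abundance. Most members share nearly all sequence with other transcripts of their gene, so their counts depend on how shared reads were divided, counts of 0 included. The depth limits members near the minimum most: 10 counts allow only large differences to be called.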

Other observations

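Position of the premature stop went with small differences. Relative medians wild type over GST were 0.16 for 560 members with the stop 51 to 200 bases before the last junction, -0.01 for 673 at 201 to 1000 bases and -0.21 for 231 beyond. Ala over GST they were 0.33, 0.14 and -0.05. Members whose stop lay outside every protein-coding exon stood at 0.16 wild type over GST (n = 421) and those with a stop inside at 0.03 (n = 1049).

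Further abundant members, picked for their counts, differed among themselves. GATAD2A-205, from the gene of a chromatin repressor subunit, had 2682, 1428 and 1285 counts in GST, wild type and Ala beside 1011, 1314 and 1738 in its host. Its relative log2 ratios were -1.29 wild type over GST and -1.84 Ala over GST. GANAB-211, from the gene of a glucosidase of the endoplasmic reticulum, had 5076, 2744 and 2959 counts beside 62, 0 and 145, with relative log2 ratios that went opposite ways (6.08 wild type over GST against a host count of 0 in wild type, and -1.998 Ala over GST). Nearly all counts of GANAB considered here were thus assigned to the NMD transcript. None of its 31-base words lies outside the protein-coding transcripts of the gene, so this share depends on how shared reads were divided. WSCD1-203 had 1181, 0 and 2814 counts beside 5072, 1459 and 3931, so that its count was 0 in the library in which its host was lowest.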
